A study of Mus musculus with 40 samples.

Results

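The genes described here are the potassium channel genes of the mouse other than the Kv3 subfamily. They are protein-coding genes with a symbol that starts with Kcn and goes on with one of the letters a, b, d to k, m, n, q and s to v, and that had at least 10 counts in at least 5 of the 40 libraries. Of 89 genes with such a symbol 73 met the count minimum, among 14542 protein-coding genes that met it. The rule uses no test between groups. Its minimum of 5 libraries is also the size of a group, so that a gene can enter through a group in which it is high. Kcne3 reached 10 counts in 9 libraries and Kcnq1 in 8. The members fall into pore-forming subunits of the Kv1 (6 of 8 genes), Kv2 (2 of 2), Kv4 (3 of 3), Kv7 (5 of 5) and EAG/ERG/ELK (8 of 8) subfamilies, silent Kv subunits (8 of 10), calcium- and sodium-activated channels (7 of 8), inward rectifiers or Kir (13 of 15), and K2P leak channels (8 of 14). The KChIP genes (4 of 4) and a mixed group of other auxiliary subunits (9 of 12) make up the rest.

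Libraries came from forebrain pools taken at postnatal day 21, each of 2 to 3 mice of both sexes. The labels give the tissue as cortex, and the methods of the study describe dissected forebrain. RBP4-TRAP mice carry the Tg(RBP4-cre) KL100 transgene, which drives Cre in layer 5 pyramidal cells, and VGAT-TRAP mice carry Cre in Slc32a1, the gene for the vesicular GABA transporter, so that GABAergic neurons of any kind are included. Both lines also carry the Cre-dependent EGFP/Rpl10a reporter in the Rosa26 locus, which tags ribosomes, and no line without Cre is among the samples. Each of 5 pools per line gave 4 libraries. These were whole cell homogenate (WCH), ribosome-bound RNA captured from it (TRAP), a synaptoneurosome fraction (SNF) enriched for pinched-off synaptic particles, and TRAP performed on that fraction (SynapTRAP, ST). WCH and SNF therefore hold RNA of all cells, and TRAP and ST hold RNA on tagged ribosomes together with any RNA that comes down with them.

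Potassium channels let potassium leave the cell, bring the membrane back to rest after an action potential and set how easily a neuron fires. Voltage-gated Kv channels open on depolarization, calcium-activated channels open as calcium enters, inward rectifiers and K2P channels hold the resting potential, and G-protein-gated inward rectifiers carry slow inhibition. KChIP proteins bind Kv4 channels and change their gating and surface number, and Kvβ proteins (Kcnab genes) do so for Kv1 channels. Silent Kv subunits form no channel of their own and join with Kv2 subunits. In the cortex neuron types differ in the set of such genes that they express, and astrocytes carry their own inward rectifiers.

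The 40 libraries held between 14259535 and 22037703 counts, and between 8950847 and 21976631 once the genes of mitochondrial, rRNA and tRNA transcripts were removed. Levels are given as CPM (counts scaled by the remaining total of each library), at which 1 count is worth between 0.0455 and 0.112 CPM. The line markers followed the labels in TRAP, where Slc32a1 was between 48.4 and 77.2 CPM in the VGAT-TRAP line and between 1.49 and 4.99 CPM in the RBP4-TRAP line. Some libraries stood apart from the rest of their group. RBP4 TRAP replicate 5 had 331 CPM of Gad1 against 58.3 to 95 CPM in the other 4, VGAT TRAP replicate 3 had 155 CPM of Slc17a7 against 24.6 to 48.8 CPM, and RBP4 ST replicate 4 had 49.9 CPM of Slc32a1 against 10.9 to 19.7 CPM. SNF replicate 3 of both lines had mitochondrial shares of 40.2% (RBP4) and 41.9% (VGAT) of all counts, against 11.2% to 19.4% in the other SNF libraries, and ST replicate 3 had 15.8% and 19% against 2.71% to 7.08% in the other ST libraries. Mitochondrial genes were left out of the totals used here.

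Together the members took a small share of the counts, and that share was largest in the synaptoneurosome fraction. In the RBP4-TRAP line it was 0.363% ± 0.0123 (SD, n = 5) in WCH, 0.271% ± 0.0133 in TRAP, 0.543% ± 0.0815 in SNF and 0.402% ± 0.0509 in ST. The VGAT-TRAP line had 0.383% ± 0.0137, 0.355% ± 0.00906, 0.616% ± 0.078 and 0.439% ± 0.0406. Within TRAP the 5 RBP4 libraries lay between 0.252% and 0.286% and the 5 VGAT libraries between 0.346% and 0.367%, and the ranges did not overlap. Per kb of exon, and as a mean over the 40 libraries, leading members of their subfamilies were Kcnk1 (76.0 CPM per kb, a K2P channel), Kcna1 (52.62, Kv1), Kcnma1 (46.16, the pore of the BK channel), Kcnd2 (41.89, Kv4), Kcnj10 (35.42, Kir), Kcnv1 (33.51, silent), Kcnab2 (32.29, Kvβ), Kcnip3 (32.22, KChIP) and Kcnh1 (14.83, EAG). In RBP4 TRAP Kcnip4 (49.4 CPM per kb), Kcnk1 (46.3) and Kcnip3 (42.9) had the highest means, and in VGAT TRAP Kcnip2 (77.1), Kcnk1 (75.4) and Kcnab1 (58.4).

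The first comparison asked which potassium channel genes differ on tagged ribosomes between layer 5 neurons and GABAergic neurons. Among members higher in VGAT TRAP, genes of auxiliary subunits and silent subunits had the widest differences. Kcnmb2, Kcnip1 and Kcns3 were in RBP4 TRAP at 0.0427, 0.0691 and 0.101 times their level in VGAT TRAP. Among members higher in RBP4 TRAP the K2P channel gene Kcnk4 had the widest difference, at 6.38-fold. Of the 73 members 23 were higher and 25 lower in RBP4 TRAP (edgeR's quasi-likelihood test, adjusted p of at most 0.05 over all genes), against 12.9% of all 16898 genes tested that were higher and 15.1% that were lower. The median log2 fold change was -0.00 over the members and -0.01 over all genes. In these bulk libraries fewer cells of a type and less RNA per cell cannot be told apart, and the VGAT-TRAP line takes in GABAergic neurons of cortex and striatum. Summed levels of 6 striatal projection neuron markers had a median of 4370 CPM in VGAT TRAP and 183 CPM in RBP4 TRAP, and their part in the differences was not tested.

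The members that were higher in VGAT TRAP were led by partners of other channels. Kcnip2, a KChIP that binds Kv4 channels, was at 274, 323, 225, 283 and 236 CPM in the 5 VGAT TRAP libraries and at 53.8, 51.8, 58.2, 58.3 and 56.2 CPM in the 5 RBP4 TRAP libraries. Its groups lay far apart, with a log2 fold change of -2.27 (SE 0.14, adjusted p = 9.92e-14) for RBP4 over VGAT. Kcnip1, another KChIP, was at 330, 396, 219, 269 and 260 CPM in VGAT TRAP and at 18.4, 10.8, 12.7, 17.2 and 42.9 CPM in RBP4 TRAP. The value of 42.9 CPM belongs to RBP4 TRAP replicate 5, and the log2 fold change was -3.86 (SE 0.35, adjusted p = 3.92e-10) with that pool and between -4.32 and -3.70 when each pool was left out in turn.

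Kcnmb2 encodes a β subunit of the BK channel that makes it inactivate. Its levels were 33.8, 33.6, 30.5, 39.2 and 32.5 CPM in VGAT TRAP and 2.26, 1.19, 1.19, 1.64 and 0.952 CPM in RBP4 TRAP. This was the largest change among the members past the threshold, at -4.55 on the log2 scale (SE 0.33, adjusted p = 5.91e-12). Kcns3, a silent subunit that joins Kv2 channels, was at 41.8, 57.9, 45.2, 60.3 and 51.1 CPM in VGAT TRAP and at 5.07, 8.17, 4.1, 4.46 and 4.09 CPM in RBP4 TRAP. Its log2 fold change was -3.30 (SE 0.30, adjusted p = 4.78e-10).

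Further members higher in VGAT TRAP included the Kvβ genes Kcnab1 and Kcnab3, with log2 fold changes of -1.67 and -1.55, the K2P genes Kcnk3 and Kcnk13 (-1.94 and -1.63), and the ERG gene Kcnh2 (-1.66). Of 6 Kv1 genes 4 were lower in RBP4 TRAP and 0 higher. Each subfamily count of this comparison stands beside 15.1% of all genes lower and 12.9% higher. Kcna1, which opens at low voltage and is abundant in axons, had a mean level of 381 CPM ± 15.2 (SD, n = 5) in VGAT TRAP against 200 CPM ± 31.2 in RBP4 TRAP, a log2 fold change of -0.93. Kcna5 differed more, by -2.20, at a lower level of 11.5 CPM ± 4.84 against 2.49 CPM ± 1.03. Kcne4, an inhibitory subunit of the Kcne family, had -3.43 from means of 0.98 and 0.09 CPM, so that its RBP4 values rest on a few counts per library. Kcng4, a silent subunit, was at 0, 0.347, 0.675, 0.319 and 12.3 CPM in RBP4 TRAP and between 12.2 and 17.2 CPM in VGAT TRAP. The value of 12.3 CPM belongs again to replicate 5, and the log2 fold change for RBP4 over VGAT was -2.43 with it (adjusted p = 0.00447) and between -5.39 and -2.12 when each pool was left out in turn.

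**Figure D1:**
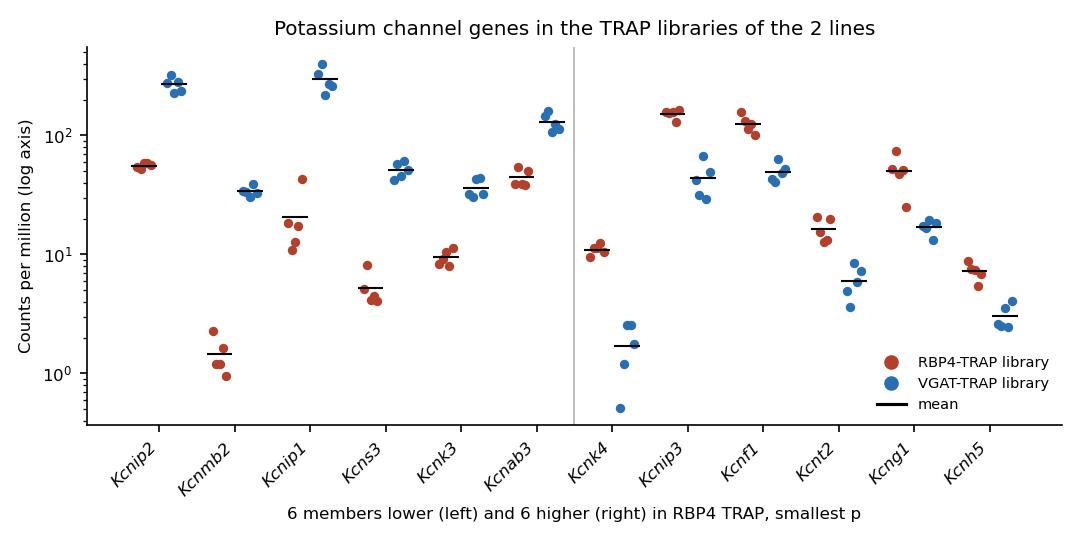
CPM on a log axis for 12 members in the 5 TRAP libraries of each line (RBP4-TRAP red, VGAT-TRAP blue, black lines are means of n = 5), the 6 with the smallest p in each direction. The groups did not overlap for any of the 12, which the choice by p in this same comparison favours. Kcnip1 in RBP4 TRAP replicate 5 (42.9 CPM) lay above the other 4 libraries of its group.

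The K2P genes went both ways, with 2 of 8 higher in RBP4 TRAP and 4 lower, and of 7 calcium- and sodium-activated genes 4 were higher and 2 lower. Kcnk4, a K2P channel that also responds to stretch, was at 9.48, 11.3, 11.2, 12.4 and 10.5 CPM in RBP4 TRAP and at 0.51, 1.19, 2.55, 2.54 and 1.75 CPM in VGAT TRAP (log2 fold change 2.67, SE 0.28, adjusted p = 9.09e-09). The counted exons of Kcnk4 share 13.1% of their bases with Catsperz on the same strand. Kcnip3, a KChIP also known as a transcriptional regulator, was at 156, 155, 157, 129 and 163 CPM in RBP4 TRAP and at 42.3, 31.3, 67.2, 29.1 and 49.3 CPM in VGAT TRAP (1.80, SE 0.22, adjusted p = 1.83e-07). The highest VGAT value, 67.2 CPM, belongs to replicate 3. Without that pool Kcnip3 had an adjusted p of 7.89e-08, and the log2 fold change of Kcnk4 was 2.85.

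Kcnf1, a silent subunit, was at 158, 132, 113, 125 and 100 CPM in RBP4 TRAP and at 42.7, 40.2, 63.8, 48.4 and 52.6 CPM in VGAT TRAP. This is a log2 fold change of 1.34 (SE 0.22, adjusted p = 2.51e-05), and of 1.45 without VGAT replicate 3, the library at 63.8 CPM. Kcnt2, a sodium-activated channel, was at 20.6, 15.5, 12.6, 13.2 and 19.7 CPM against 4.91, 3.63, 8.48, 5.87 and 7.24 CPM. Its groups did not overlap either, with a log2 fold change of 1.43 (SE 0.25, adjusted p = 5.44e-05) and of 1.58 without VGAT replicate 3. The silent subunits Kcng1 (1.55), Kcnv1 (1.52, and 1.80 without VGAT replicate 3) and Kcng2 (1.23) were also higher in RBP4 TRAP, so that of 8 silent subunits 4 were higher and 2 lower. Kcnb2, a Kv2 subunit with which silent subunits can join, was higher with 0.74. Kcnma1, the BK pore, had 0.74 from 157 CPM ± 29.4 in RBP4 TRAP against 93.9 CPM ± 11.9 in VGAT TRAP, and its groups overlapped. The BK β subunit genes went different ways. Kcnmb2 was lower in RBP4 TRAP, while Kcnmb4 was between 9.64 and 15 CPM there and between 5.83 and 8.86 CPM in VGAT TRAP. Of 8 EAG/ERG/ELK genes 4 were higher and 3 lower. Kcnh5 (EAG) had 1.25 and Kcnh3 (ELK) 0.88. Kcne3 had 2.66 at a mean under 1 CPM in both groups.

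The 4 KChIP genes split evenly, with Kcnip3 and Kcnip4 (0.71, lost without RBP4 replicate 1 or VGAT replicate 5) higher in RBP4 TRAP and Kcnip1 and Kcnip2 lower. Of their Kv4 channels Kcnd2 had -0.47 (lost without VGAT replicate 5), while Kcnd1 (-0.02) and Kcnd3 (-0.12) did not pass the test. Of 13 Kir genes 1 was higher and 2 were lower, against 12.9% and 15.1% of all genes. With each pool left out in turn, pools of RBP4 TRAP replicate 5 and VGAT TRAP replicate 3 included, 19 to 24 members were higher and 22 to 26 lower. The 24 members named by their p in this comparison stayed past the threshold without RBP4 replicate 5 and without VGAT replicate 3. Of 14 partner genes outside the rule, listed for their known binding to these channels, 12 were tested. Of these 2 were higher and 2 lower, beside 12.9% higher and 15.1% lower over all genes. Dpp10 and Dpp6 are related partners of Kv4 channels, and Dpp10 was higher in RBP4 TRAP (0.94, adjusted p = 0.0022) while Dpp6 was lower (-0.73, adjusted p = 0.00815). Lgi1, a secreted protein that acts on Kv1 channels, was higher (0.77, adjusted p = 0.00307), and Cntnap2, which clusters Kv1 channels along axons, had -1.17 (adjusted p = 2.54e-06).

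As the files give them, with coordinates that for 48 of the 73 members start at the same base as in the GRCm38 annotation, Kcnip1 lies on the minus strand at chr11:33629339-33993152, Kcnmb2 on the plus strand at chr3:31902507-32200180, Kcnip3 on the minus strand at chr2:127456498-127522094 and Kcnk4 on the minus strand at chr19:6925710-6934515. Promoter windows are shown for 2 members from each direction, chosen among those with values per library, to give the sequence context of the genes that differ between the lines. The windows are the 250 bases before the outermost RefSeq start on GRCm38.p6, written 5′ to 3′ on the strand of the gene, with the letters CAGCTG in capitals. CAGCTG is one form of the E-box and reads the same on both strands.
Kcnip1 promoter, chr11:33993194-33993443, minus strand: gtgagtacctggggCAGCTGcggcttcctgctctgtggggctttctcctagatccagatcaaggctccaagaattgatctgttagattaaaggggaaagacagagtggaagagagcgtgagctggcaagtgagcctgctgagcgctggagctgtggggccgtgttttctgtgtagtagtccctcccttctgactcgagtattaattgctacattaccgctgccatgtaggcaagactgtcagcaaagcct
Kcnmb2 promoter, chr3:31902453-31902702, plus strand: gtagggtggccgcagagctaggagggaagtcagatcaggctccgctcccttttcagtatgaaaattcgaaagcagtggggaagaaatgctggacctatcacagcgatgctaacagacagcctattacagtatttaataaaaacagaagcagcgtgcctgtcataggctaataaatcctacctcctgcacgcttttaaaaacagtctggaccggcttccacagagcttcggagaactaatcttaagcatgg
Kcnip3 promoter, chr2:127522095-127522344, minus strand: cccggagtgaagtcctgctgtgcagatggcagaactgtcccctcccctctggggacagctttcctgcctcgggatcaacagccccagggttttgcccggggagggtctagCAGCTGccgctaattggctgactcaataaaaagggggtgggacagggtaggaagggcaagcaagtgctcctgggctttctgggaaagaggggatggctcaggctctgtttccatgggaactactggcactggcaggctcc
Kcnk4 promoter, chr19:6934516-6934765, minus strand: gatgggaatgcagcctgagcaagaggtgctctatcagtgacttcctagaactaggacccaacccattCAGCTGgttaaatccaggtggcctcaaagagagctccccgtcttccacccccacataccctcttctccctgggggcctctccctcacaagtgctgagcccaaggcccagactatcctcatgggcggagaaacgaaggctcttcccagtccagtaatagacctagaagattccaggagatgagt
Of the 73 members 51 matched the RefSeq promoter table by symbol. CAGCTG was in the window of 14 of these 51 genes (27.5%) and of 12.7% of 27025 genes. It was present in Kcnip1 and Kcnip3, which differed in opposite directions, and in Kcnk4, and was not found in the window of Kcnmb2. The RefSeq start of Kcnmb2 lies inside the gene as the files give it, so that 196 of the 250 bases of its window are within the counted gene, and the window does not describe the sequence before the start in the files. GGGCGG (both strands), the core of the GC box, was in 49% of the member windows and 33% of all windows. The median GC content of the windows was 60% for members and 52% for all genes. TAATTA and TGACGTCA were in 0 of the 51 windows, against 4.91% and 1.6% of all windows, and TATAAA (both strands) was in 3.92% against 13%. These are descriptions of letters in a fixed window. The 27025 genes were not limited to protein-coding genes or to genes past the count minimum, as the members were. The shares therefore compare unlike sets and do not single out potassium channel genes.

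In the homogenate no member passed the test between the lines. RBP4 WCH over VGAT WCH gave 0 members higher and 0 lower with edgeR (1 and 2 at an unadjusted p under 0.05, and 0 and 0 with DESeq2), and 0.00592% of all genes were called in each direction. Kcnip1 had a mean of 49.7 CPM ± 12.3 in RBP4 WCH against 47.4 CPM ± 9.87 in VGAT WCH, and Kcnmb2 6.88 CPM ± 1.84 against 6.71 CPM ± 0.823.

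TRAP was then compared with the homogenate within each line. In RBP4 TRAP 4 of 73 members were higher than in WCH and 32 lower, against 8.37% and 31.5% of all genes. Kcng2 (0.98), Kcnk4 (0.93), Kcnn1 (0.69, a small-conductance calcium-activated channel) and Kcnip3 (0.67) were higher. Kcna1 (-1.14), Kcnj2 (-1.88), Kcnmb2 (-2.24), Kcnj16 (-2.86), Kcnj10 (-2.98) and Kcne4 (-3.84) were among the lower members. These counts depend on the scaling, because library size alone placed the median of all genes at -0.34. With edgeR's TMM factors that median was -0.05 and the counts were 10 higher and 19 lower, against 19.3% and 22.4% of all genes. With the pool as a replicate block, 8 members were higher and 37 lower. The call of Kcng2 was lost without RBP4 replicate 2 or 3, and that of Kcnip3 without replicate 1.

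In VGAT TRAP 15 of 71 members tested were higher than in WCH and 33 lower, against 21% and 41.8% of all genes. The higher members were led by Kcnip1 (2.64, SE 0.21), Kcnmb2 (2.34, SE 0.28), Kcns3 (1.94, SE 0.24), Kcng4 (1.74, SE 0.16), Kcnab3 (1.34, SE 0.15) and Kcnip2 (1.16, SE 0.12). Kcnt2 (-2.36), Kcnh7 (-2.21, an ERG channel), Kcnh5 (-2.20), Kcnb2 (-1.71), Kcnj3 (-1.24, a G-protein-gated rectifier) and Kcnq3 (-1.21, a subunit of the M current) were lower. The median over the members was -0.25 and changed to 0.00 with TMM factors, at medians of all genes of -0.31 and -0.06.

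In both lines more members were higher in the synaptoneurosome fraction than in the homogenate than were lower, and among pore-forming subfamilies only Kcnu1 was called lower. In the RBP4-TRAP line 31 of 73 members were higher in SNF and 6 lower, against 13.4% and 36.1% of all genes. In the VGAT-TRAP line 48 of 71 were higher and 6 lower, against 19.3% and 45.2%. The median log2 fold change of the members was 0.62 and 0.74, beside -0.50 and -0.52 for all genes. With TMM factors the medians of all genes were -0.17 in both lines and the members counted 50 higher and 5 lower (19.3% and 17.9% of all genes), and 58 higher and 6 lower (24.6% and 27.9%). None of the called members changed sign under TMM factors or DESeq2. Markers of glia were higher in SNF too, with 6 of 6 astrocyte markers in each line (medians 1.38 and 1.52), 5 and 6 of 6 microglia markers, 4 and 5 of 6 oligodendrocyte markers and 2 and 3 of 6 endothelial and mural markers, and their part in the result was not tested. SNF replicate 3 held the lowest value of 45 of 73 members in the RBP4-TRAP line and of 49 in the VGAT-TRAP line, and its summed astrocyte markers were 24800 and 24500 CPM. Without that pool 35 members were higher and 6 lower, and 50 and 6.

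Kcnma1 rose from 246 CPM ± 12.3 (SD, n = 5) in RBP4 WCH to 486 CPM ± 89.2 in RBP4 SNF. This was a log2 fold change of 0.98 (SE 0.19, adjusted p = 0.000429), or 1.48 above the median over all genes. Its change in the VGAT-TRAP line was 1.08 (SE 0.17, adjusted p = 1.28e-05). Kcna1 (0.69 and 0.88), the Kv4 channel Kcnd2 (0.84 and 0.88) and the Kir channel Kcnj4 (1.02 and 1.25) were higher in SNF in both lines. All 3 Kv4 genes were called higher in each line (Kcnd3 not without RBP4 replicate 1 or 4). Kcnk1, the K2P gene with the highest level, had 0.81 in the RBP4-TRAP line and 1.05 (SE 0.10, adjusted p = 7.4e-08) in the VGAT-TRAP line.

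Several KChIP and Kvβ genes were lower in SNF. Kcnab1 was at 133, 224, 169, 177 and 210 CPM in RBP4 WCH and at 79.5, 76.1, 39.7, 71.3 and 101 CPM in RBP4 SNF, with a log2 fold change of -1.31 (SE 0.26, adjusted p = 0.000425). Levels in the VGAT-TRAP line were 202, 238, 205, 201 and 229 CPM in WCH and 88.2, 91.7, 46.7, 84 and 87.4 CPM in SNF (-1.43, SE 0.27, adjusted p = 8.7e-05). Every SNF value lay below every WCH value of its line. Kcnip4 was at 116, 113, 117, 121 and 131 CPM in RBP4 WCH and at 58.1, 48.6, 41, 60.7 and 87 CPM in RBP4 SNF, and its log2 fold changes were -1.02 and -1.31 in the RBP4-TRAP and VGAT-TRAP lines. Kcnab3 had -0.87 and -0.98, and Kcnip2 -0.75 and -0.96. Measured against the median change over all genes these were smaller, at -0.81 and -0.91 for Kcnab1, -0.52 and -0.80 for Kcnip4, -0.37 and -0.47 for Kcnab3 and -0.26 and -0.45 for Kcnip2. Kcnip1 fell by 0.85 on the log2 scale in the VGAT-TRAP line (adjusted p = 0.000963), a call that DESeq2 did not make (adjusted p = 0.106). In the RBP4-TRAP line it had -0.77 (adjusted p = 0.0633, and 0.00767 with the replicate block). Kcnip3 was the KChIP that differed, with 0.69 (adjusted p = 0.00733, lost without RBP4 replicate 1) in the RBP4-TRAP line and 0.37 (adjusted p = 0.0928) in the VGAT-TRAP line. The third Kvβ gene, Kcnab2, had 0.15 and -0.07 and passed the test in neither line. Kcnu1, a calcium-independent relative of the BK channel known from sperm, was lower with -1.04 and -1.17, at mean levels under 8 CPM in WCH. Kcne3, at means of 0.581 CPM in RBP4 WCH and 0.106 CPM in SNF, had -2.36 from a few counts per library.

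**Figure D2:**
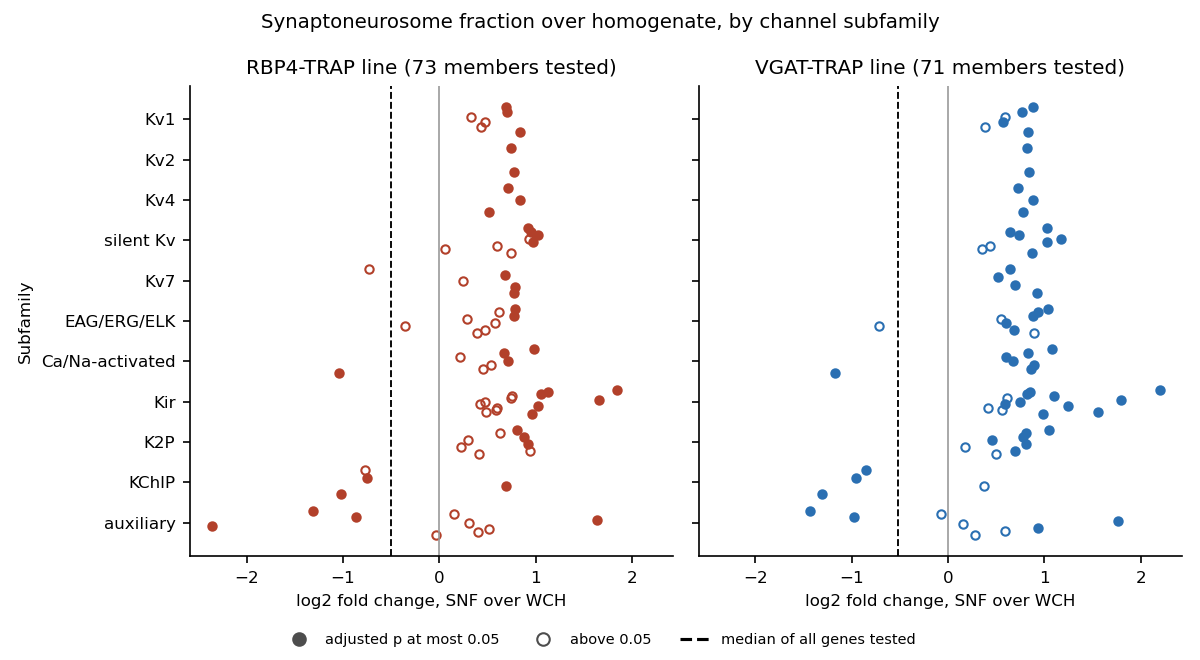
Log2 fold change of SNF over WCH for each member tested (points, filled where the adjusted p is at most 0.05), by subfamily, in the RBP4-TRAP line (left, 73 members) and the VGAT-TRAP line (right, 71 members). Most pore-forming members lie right of 0 while Kcnip1, Kcnip2, Kcnip4, Kcnab1 and Kcnab3 lie left of it in both panels, and the dashed lines mark the medians of all genes tested, -0.50 and -0.52.

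SynapTRAP over the synaptoneurosome fraction asks which RNAs of that fraction are captured with tagged ribosomes. Fewer members were higher than were lower. In the RBP4-TRAP line 4 of 73 members were higher and 14 lower, against 5.64% and 5.46% of all genes. The replicate block kept the 4 and gave 23 lower. Without RBP4 replicate 4 the counts were 2 higher and 5 lower, and without replicate 1 they were 2 and 8. Without ST replicate 4 alone 2 were higher. In the VGAT-TRAP line 6 of 71 were higher and 22 lower, against 16.3% and 11.2%. Medians were -0.43 and -0.40 for the members, beside -0.05 and 0.08 for all genes.

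Kcnab2, the Kvβ gene with no called change in SNF, had the largest change among the members called higher in ST. It was at 98.2, 118, 110, 134 and 133 CPM in RBP4 SNF and at 286, 287, 332, 484 and 307 CPM in RBP4 ST (1.51, SE 0.20, adjusted p = 5.2e-05, and 1.35 without ST replicate 4, the library at 484 CPM). Levels in the VGAT-TRAP line were 115, 122, 109, 90.9 and 98.4 CPM in SNF and at 376, 343, 401, 262 and 323 CPM in ST (1.67, SE 0.13, adjusted p = 1.08e-08). The ST and SNF values did not overlap in either line, and between the lines ST differed by -0.01 (SE 0.18) from means of 339 CPM ± 83.2 and 341 CPM ± 53.3. The summed level of 6 oligodendrocyte markers moved with this change. Its range was 12200 to 18800 CPM in RBP4 SNF and 31800 to 44800 CPM in RBP4 ST, and 14900 to 18000 CPM and 32600 to 54700 CPM in the VGAT-TRAP line. Of the 6 markers 3 were higher and 0 lower in RBP4 ST over SNF, 3 were higher and 1 lower in VGAT ST over SNF, none was at 0, and their part in the result was not tested.

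Kcnh3, an ELK channel of forebrain neurons, was at 22.5, 23, 19.9, 24.6 and 21.4 CPM in RBP4 SNF and at 33.9, 29, 30.6, 62.4 and 38.1 CPM in RBP4 ST, which do not overlap. Its log2 fold change was 0.80 (SE 0.21, adjusted p = 0.0146) and was 0.56 (adjusted p = 0.0626) without ST replicate 4, the library at 62.4 CPM. For VGAT-TRAP mice it was 0.98 (SE 0.19, adjusted p = 0.000377). Kcnmb4, the BK β subunit of neurons, had 1.03 and 0.90 in the RBP4-TRAP and VGAT-TRAP lines, and its counted exons overlap those of 2 antisense genes (10.7% and 20.8% of its bases), which reads without strand cannot separate.

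The members lower in ST than in SNF included Kcna1 (-0.97 and -0.90), Kcnj3 (-1.26 and -1.52) and Kcnh7 (-1.12 and -1.43, the first lost without RBP4 replicate 4). Kcna1 was at 695, 820, 583, 721 and 748 CPM in RBP4 SNF and at 299, 368, 387, 369 and 396 CPM in RBP4 ST, and its groups lay apart. Kcnj3 overlaps an antisense gene over 31.1% of its exon bases. Further lower members were Kcnj2 (-1.13), Kcnh5 (-1.33) and Kcnmb2 (-1.20, lost without RBP4 replicate 4) in the RBP4-TRAP line and Kcnk1 (-0.88), Kcnq5 (-1.08) and Kcnb2 (-1.01) in the VGAT-TRAP line. The KChIP gene Kcnip2 was higher in VGAT ST with 0.50 (adjusted p = 0.00246).

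The study combined comparisons into lists. Local translation candidates are genes that were higher in ST over SNF and in SNF over WCH, and somatic candidates are genes that were higher in TRAP over WCH and lower in SNF over WCH, here at an unadjusted p under 0.05 in each. The comparisons within a list share the SNF or the WCH libraries. The local candidates of the RBP4-TRAP line held 2 members, Kcnh3 among them, with 0.417% of all genes on that list. Those of the VGAT-TRAP line held 3, Kcng4 and Kcnh3 among them, with 1.29% of all genes. Kcng4 had 1.17 for SNF over WCH and 0.42 (adjusted p = 0.0474) for ST over SNF. The latter was 0.32 (adjusted p = 0.197) with TMM factors, and its call was lost on leaving out VGAT replicate 1, 2, 4 or 5. Somatic candidates were 1 member in the RBP4-TRAP line, Kcnip4, with 5.94% of all genes on that list, and 4 in the VGAT-TRAP line, Kcnab1, Kcnab3, Kcnip1 and Kcnip2, with 13.2% of all genes. These shares are of all genes tested. The call of Kcnip4 was lost on leaving out RBP4 replicate 1, 2 or 3. The somatic members are all KChIP or Kvβ genes.

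**Figure D3:**
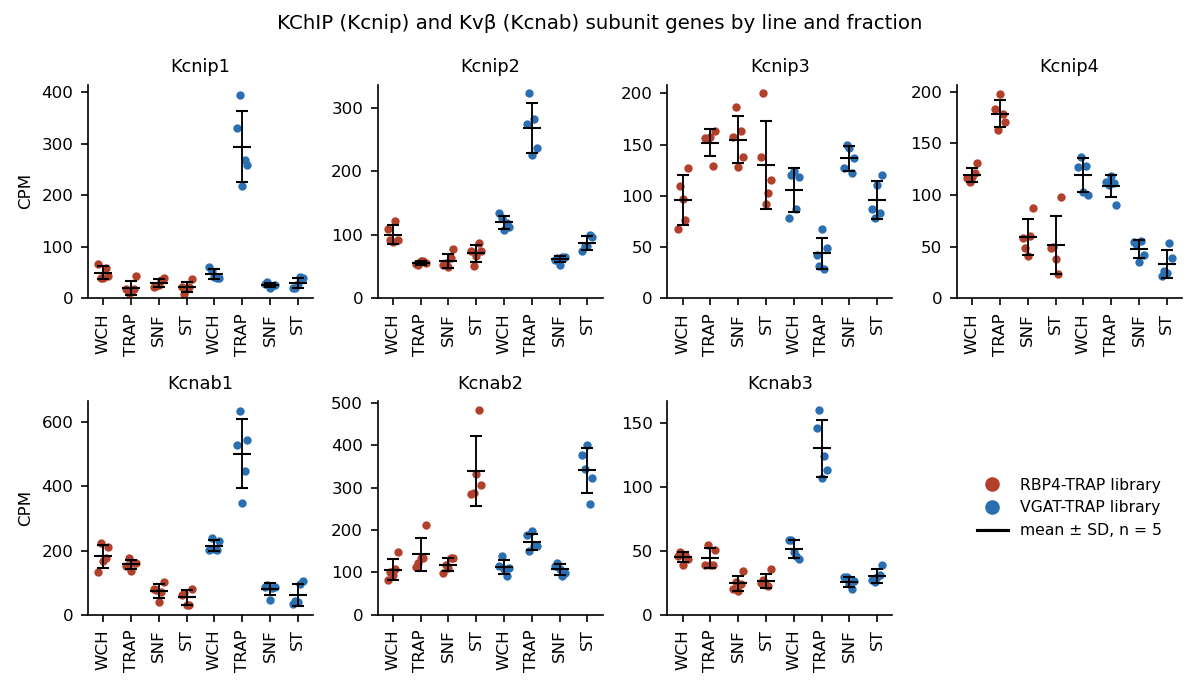
CPM of the 4 KChIP and 3 Kvβ genes in each library (points, RBP4-TRAP red, VGAT-TRAP blue) of the 4 fractions, with mean ± SD of n = 5. Kcnip1, Kcnip2, Kcnab1 and Kcnab3 peak in VGAT TRAP, Kcnip4 peaks in RBP4 TRAP, and Kcnab2 peaks in ST of both lines at means of 339 and 341 CPM.

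ST was compared with TRAP within each line. In the RBP4-TRAP line 30 of 73 members were higher in ST and 7 lower, against 26% and 29.1% of all genes. In the VGAT-TRAP line 43 of 71 were higher and 12 lower, against 37.5% and 34%. Among neuronal members Kcnh3 (2.64-fold and 4.59-fold) was higher in ST in both lines. Kcnk3 had 1.54 in the RBP4-TRAP line, and Kcnma1 (1.88), Kcnh1 (1.83) and Kcnb2 (1.54) were among the higher members of the VGAT-TRAP line. Kcnip4 (-1.79 and -1.72) and Kcnab1 (-1.51 and -2.99) were lower in both. In the RBP4-TRAP line Kcne3 (-3.37), Kcnh6 (-1.83), Kcnu1 (-1.23) and Kcnk4 (-0.93) were lower too, the first at a mean under 1 CPM. In the VGAT-TRAP line Kcnip1 (-3.31, SE 0.22), Kcns3 (-2.14, SE 0.24), Kcnab3 (-2.10, SE 0.15) and Kcnip2 (-1.63, SE 0.12) were lower. Neuron type markers moved as well. In VGAT ST over TRAP 6 of 6 GABAergic markers were lower (median -3.04) and 4 of 6 layer 5 and other glutamatergic markers were higher and 1 lower (1.17), and in RBP4 ST over TRAP 4 and 0 of the GABAergic markers were higher and lower (1.01), and 1 and 3 of the glutamatergic ones (-0.69). Their part in the results was not tested.

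The largest changes in ST over TRAP were those of Kcne1l, Kcnj10, Kcnj8, Kcnj16 and, in the RBP4-TRAP line, Kcne4 (3.80, from 0.0867 to 1.27 CPM, with few or no counts in TRAP). Kcnj10, the main inward rectifier of astrocytes, was at 11.3, 4.6, 11.3, 9.74 and 18.9 CPM in RBP4 TRAP and at 240, 129, 533, 310 and 77.2 CPM in RBP4 ST (4.53, SE 0.50, adjusted p = 2.67e-07). Levels in the VGAT-TRAP line were 5.04, 6.36, 33, 7.35 and 16.8 CPM in TRAP and at 454, 416, 613, 189 and 162 CPM in ST (4.74, SE 0.50, adjusted p = 2.83e-08). Its partner Kcnj16 had 3.57 and 4.00, and Kcne1l, listed under an older symbol of a Kcne gene, had 4.79 and 4.43 at mean levels under 6 CPM. Kcnj8, the pore of the ATP-sensitive channel of pericytes, had 4.09 and 5.70 from means of 0.149 and 0.0352 CPM in TRAP, that is from a few counts or none per library. In RBP4 ST it was at 1.09, 9.36, 0.452, 1.78 and 0.313 CPM, and the library at 9.36 CPM, replicate 2, also had the highest summed level of 6 endothelial and mural markers, 820 CPM against 67.6 to 127 CPM in the other 4.

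The summed level of 6 astrocyte markers moved with Kcnj10. It had ranges of 369 to 1650 CPM in RBP4 TRAP and 3740 to 20500 CPM in RBP4 ST, and of 160 to 1040 CPM and 4910 to 17900 CPM in the VGAT-TRAP line. All 6 markers were higher in ST than in TRAP in each line, none was at 0 in any group, and the same held for the 6 oligodendrocyte, 6 microglia and 6 endothelial and mural markers. In both lines Kcnj10 and Kcnj16 were lower in TRAP and higher in SNF than in WCH, as the astrocyte markers were (5 and 6 of 6 lower in TRAP, 6 and 6 of 6 higher in SNF). The part of glial RNA in the ST values of these members was not tested.

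**Figure D4:**
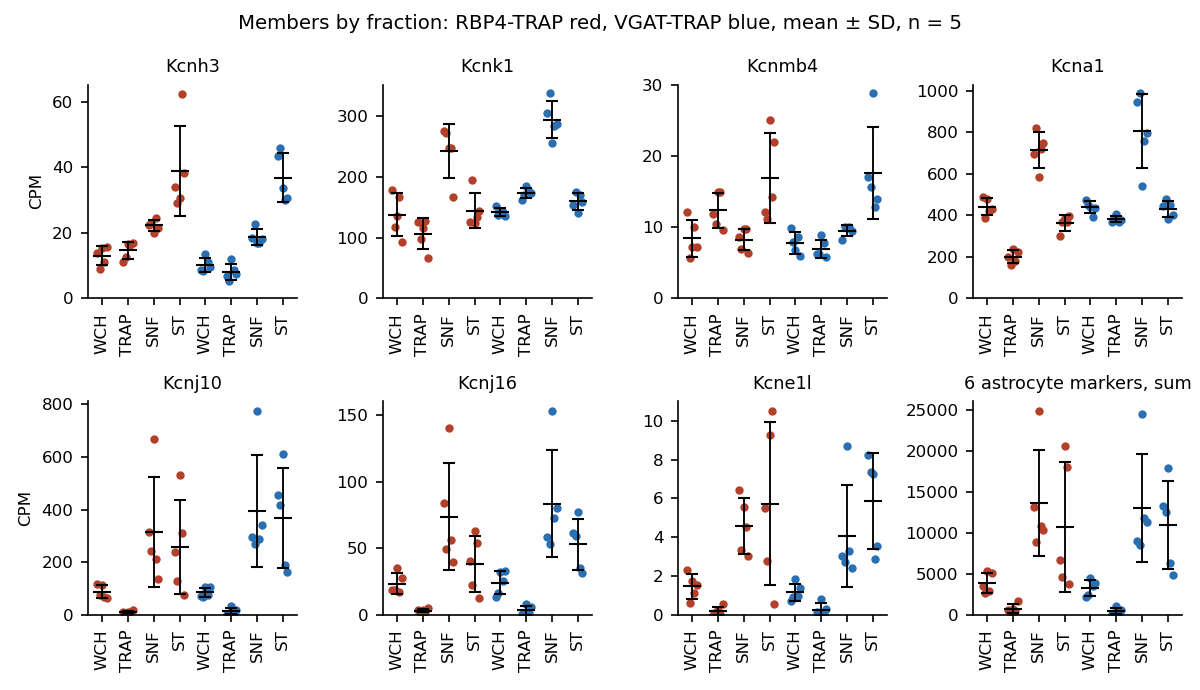
CPM of 7 members in each library and, at lower right, the summed level of 6 astrocyte markers (points, RBP4-TRAP red, VGAT-TRAP blue, mean ± SD, n = 5). Kcnh3 and Kcnmb4 have their highest means in ST, Kcna1 and Kcnk1 in SNF, and Kcnj10 and Kcnj16 follow the astrocyte sum in being low in TRAP and high in SNF and ST.

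No member passed the test between the lines in ST. RBP4 ST over VGAT ST gave 0 members higher and 0 lower with edgeR (1 and 8 at an unadjusted p under 0.05, 0 and 0 with DESeq2), while 0.0592% and 0.266% of all genes were called. The smallest adjusted p was that of Kcnmb2 (-1.18, SE 0.30, adjusted p = 0.0822). Kcnmb2 was at 2.88, 6.21, 3.3, 3.39 and 3.95 CPM in RBP4 ST and at 4.04, 4.7, 7.37, 17 and 11.9 CPM in VGAT ST, which overlap. It passed the threshold without RBP4 replicate 2 (-1.41, adjusted p = 0.0308) or VGAT replicate 1 (-1.37, adjusted p = 0.0417). Kcnk13 passed it without RBP4 replicate 4 (-0.98, adjusted p = 0.0376) or without ST replicate 4 alone (-0.98, adjusted p = 0.0356). Kcnip1 had means of 21.7 CPM ± 10.2 in RBP4 ST and 29.8 CPM ± 9.89 in VGAT ST, and Kcnip3 had 130 CPM ± 42.8 and 96 CPM ± 18.4. Few neuron type markers passed this test either. Of 6 GABAergic markers 1 was lower in RBP4 ST (median -0.73), of 6 striatal projection neuron markers 2 (-1.30). None of 6 layer 5 and other glutamatergic markers was called (0.23). Slc32a1 was between 10.9 and 49.9 CPM in RBP4 ST and between 23.3 and 51.3 CPM in VGAT ST, which overlap. How far the ST libraries separate the neuron types was not tested.

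The change of the line difference from TRAP to ST was tested as an interaction, in which a positive value means that the difference of RBP4 less VGAT was higher in ST than in TRAP. It was positive for 11 members and negative for 13, against 5.02% and 5.79% of all genes. The positive ones were members higher in VGAT TRAP, led by Kcnip2 (1.98, SE 0.19), Kcnmb2 (3.37, SE 0.43), Kcnip1 (3.40, SE 0.45), Kcnab3 (1.38, SE 0.21), Kcns3 (2.46, SE 0.40) and Kcnk3 (1.51, SE 0.26). The negative ones were members higher in RBP4 TRAP, led by Kcnk4 (-2.35, SE 0.38), Kcnh5 (-1.75, SE 0.33), Kcnt2 (-1.67, SE 0.35), Kcnip3 (-1.36, SE 0.31), Kcnk10 (-1.47, SE 0.39) and Kcnb2 (-0.85, SE 0.23). The call of Kcnk10 was lost without VGAT replicate 2 and that of Kcnb2 without that pool or RBP4 replicate 1. The count of 13 was 6 without RBP4 replicate 1, 8 without RBP4 replicate 3, 7 without VGAT replicate 1 and 5 without VGAT replicate 2. The 6 GABAergic markers had a median of 7370 CPM summed in VGAT TRAP and 1400 CPM in VGAT ST, and 267 CPM and 545 CPM in the RBP4-TRAP line, and all 6 had a positive interaction (median 3.95), as had all 6 striatal projection neuron markers (3.19). Of the 6 layer 5 and other glutamatergic markers 5 had a negative interaction and 1 a positive one (-2.57). Their part in the interactions of the members was not tested.

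**Figure D5:**
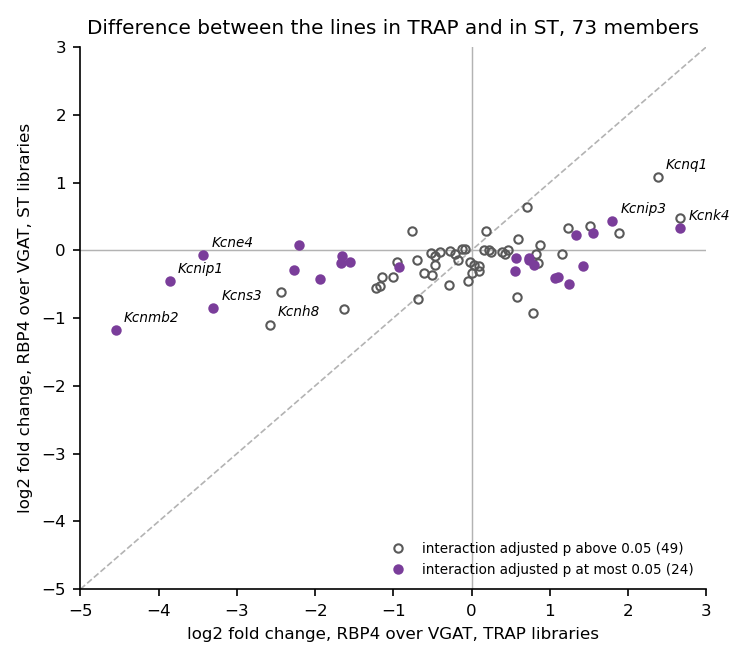
Log2 fold change of RBP4 over VGAT in TRAP (horizontal axis) and in ST (vertical axis) for the 73 members, filled for the 24 with an interaction at an adjusted p of at most 0.05. Along the horizontal axis the members run from -4.55 (Kcnmb2) to 2.67 (Kcnk4), and along the vertical axis from -1.18 (Kcnmb2) to 1.08 (Kcnq1), and the dashed line marks equal differences in both.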

How the data were processed

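RNA-seq files of 40 libraries were used (2 lines, 4 fractions, 5 replicates), and lines, fractions and replicate numbers were taken from the labels. The authors aligned reads with STAR 2.0.4b and took gene counts from unique, unambiguous alignments with featureCounts 1.4.5. The deposited counts are whole and not normalized. The deposited CPM values are counts scaled to the whole library and the deposited RPKM values are these per kb of exon, and both served to check the counts (largest differences 4.07e-10 and 4.91e-11). Symbols came from GENCODE M21, where 40254 of 41388 gene identifiers matched. The library kit does not keep strand, so that a gene and an antisense partner cannot be told apart, and how reads shared by near-identical genes were counted was not analysed here. Gene lengths came from the files, and their genome build is not given in the sources used here.

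Genes on the mitochondrial chromosome (37) and rRNA and tRNA genes (353) were left out, and CPM values and library sizes were computed from the rest. The test was the quasi-likelihood F test of edgeR 4.0.16 under R 4.3.3 (group as the only variable, Benjamini-Hochberg adjustment over all genes tested, threshold 0.05). Within a line the 20 libraries entered, with genes that reached 0.5 CPM in 3 or more, and between lines 30 libraries without SNF, with that minimum set on TRAP and ST. SE is the log2 fold change divided by the root of F. Alternatives were TMM factors, DESeq2 1.42.0, no filter on low counts, the replicate block, leaving out each pool, and RBP4 ST replicate 4 left out. Intervals were not computed, and the depth limits genes near 1 count per library.

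The 4 fractions with 1 number in a line came from 1 pool of mice, as the study's methods state, which pairs them. Deviations from group means correlated with 0.272 and 0.304 between TRAP and WCH of the same number and -0.0664 and -0.0773 for different numbers (RBP4 and VGAT). Between ST and SNF of the same number they correlated with 0.389 and 0.472, but between ST and TRAP only with -0.00899 and 0.0602. Between lines equal numbers pair no pools. Equal numbers of the lines still correlated with 0.144 in TRAP, 0.187 in WCH and 0.0434 in ST, against -0.0321, -0.0453 and -0.0101 for different numbers. The cause was not tested. Pools are the replicates, but the main fit took each library as independent and did not use the pairing of fractions within a pool. Its p-values therefore measure the spread between libraries within groups. Between the lines the replicate block joins unpaired pools, so it does not repair this for the interaction.

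The members and all gene lists were chosen with earlier results of these data known. Named were up to 12 members per direction with the smallest p in TRAP between the lines, up to 6 per direction in the other comparisons, the leading member of each subfamily by level per kb, and all candidates. Kcng4 and Kcnmb4 in TRAP, Kcnd1, Kcnd3, Kcnk13, Kcnh6 and Kcnj8 are given beside them, chosen after their values were seen. Results of some members that the rule names are not reported here, while all members enter the counts. Promoter windows came from RefSeq on GRCm38.p6. Python 3.11.15 with pandas 2.3.3, numpy 2.4.6 and matplotlib 3.10.9 was used for summaries and plots.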

Additional observations from a re-analysis of the deposited data

Results flagged for a closer look

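Among 12 members whose value in every library is given, in 8 groups of 5 libraries, 7 times 1 library lay farther from the others of its group than Dixon's 95% critical value allows. Chance alone gives this in about 1 of 20 groups. Lowest was Kcnip3 in RBP4 TRAP replicate 4, at 129 CPM against 155 to 163 CPM. Highest were Kcnip1 in RBP4 TRAP replicate 5 (42.9 CPM against 10.8 to 18.4), Kcnab2 in the same library (211 CPM against 113 to 135), Kcns3 in RBP4 TRAP replicate 2 (8.17 CPM against 4.09 to 5.07), Kcnt2 in RBP4 ST replicate 2 (40.3 CPM against 15.1 to 20.4) and Kcnab2 in RBP4 ST replicate 4 (484 CPM against 286 to 332). Kcnj10 in VGAT SNF replicate 3 was at 774 CPM against 271 to 341 CPM, and the summed astrocyte markers of that library, 24500 CPM, were above those of the other 4 (8520 to 11800 CPM).

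The difference between the lines changed from TRAP to ST in 24 members by the interaction term of edgeR. It was positive for Kcna1 (0.69), Kcna5 (2.28), Kcnab1 (1.48), Kcnab3 (1.38), Kcne4 (3.36), Kcnh2 (1.58), Kcnip1 (3.40), Kcnip2 (1.98), Kcnk3 (1.51), Kcnmb2 (3.37) and Kcns3 (2.46). It was negative for Kcnb2 (-0.85), Kcnf1 (-1.11), Kcng1 (-1.29), Kcnh1 (-0.86), Kcnh5 (-1.75), Kcnh7 (-1.02), Kcnip3 (-1.36), Kcnj6 (-1.49), Kcnk10 (-1.47), Kcnk4 (-2.35), Kcnma1 (-0.88), Kcnn1 (-0.69) and Kcnt2 (-1.67). The adjusted p-values lay between 1.37e-08 (Kcnip2) and 0.0348 (Kcnj6). For Kcnab1, Kcnb2, Kcnf1, Kcng1, Kcnh1, Kcnh7, Kcnj6, Kcnk10, Kcnma1 and Kcnn1 the call was lost on leaving out at least 1 pool.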

How the results depend on the processing

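Of the 128 tests named in the text none changed direction under an alternative. With the replicate block 128 were past the threshold as before, with TMM factors 126, without the filter on low counts 126, and with DESeq2 124 of 127. Of the 24 members called in the interaction, 23 were also called with the block. In VGAT SNF over WCH it kept 53 of 54 member calls and in VGAT ST over TRAP 54 of 55. Counts that moved with it by over 1.5 times were members higher in RBP4 TRAP over WCH (4 to 8) and lower in RBP4 ST over SNF (14 to 23). With TMM factors RBP4 TRAP over WCH had 10 members higher and 19 lower and RBP4 SNF over WCH 50 higher, and with DESeq2 these were 10, 21 and 52. DESeq2 gave 35 members lower in VGAT ST over SNF, against 22. Between the lines, where the numbers pair no pools, the block gave 23 higher and 26 lower for TRAP.

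Leaving out 1 pool at a time gave 3 to 7 members higher and 22 to 34 lower in RBP4 TRAP over WCH, 2 to 4 higher and 5 to 17 lower in RBP4 ST over SNF, 22 to 35 higher in RBP4 SNF over WCH, 0 to 1 lower in RBP4 ST over VGAT ST, and 5 to 15 negative interactions. The RBP4 somatic candidates numbered 0 to 1 and the VGAT local candidates 2 to 4. Without RBP4 ST replicate 4, 2 members were higher in RBP4 ST over SNF and 1 lower in RBP4 ST over VGAT ST. The causes were not tested. Depth limits members such as Kcne3, Kcne4, Kcnj8 and Kcnq1, which are near 1 CPM or below.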

Other observations

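Of 7 calcium- and sodium-activated members 6 were higher in VGAT SNF than in VGAT WCH and 1 lower, and in the RBP4-TRAP line 3 were higher and 1 lower, against 19.3% and 45.2% of all genes in the VGAT-TRAP line and 13.4% and 36.1% in the RBP4-TRAP line. The lower member was Kcnu1. Kcnt1, a sodium-activated channel, had 0.89 in the VGAT-TRAP line and 0.54 in the RBP4-TRAP line, where it did not pass the test. The small-conductance genes Kcnn1 and Kcnn3 had 0.67 (lost without RBP4 replicate 2) and 0.71 (lost without RBP4 replicate 2, 3 or 4) in the RBP4-TRAP line and 0.83 and 0.67 in the VGAT-TRAP line.

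Of 12 partner genes outside the rule that were tested, 7 were higher in RBP4 SNF over WCH and 0 lower, 10 and 0 in the VGAT-TRAP line, and 0 higher and 5 lower in RBP4 ST over SNF (0 and 7 in the VGAT-TRAP line). Of all genes 13.4% and 19.3% were higher in SNF over WCH, and 5.46% and 11.2% lower in ST over SNF. This list was chosen with earlier results of these data known.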
